A study of Caenorhabditis elegans with 2 samples.

Results

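The tRNA regions are the called regions of a pooled ChIP-seq list whose summit, the position of highest signal in a region, lay within 200 bp of an annotated nuclear tRNA gene. There were 255 of them among 30000 pooled regions in build ce11, and 29745 regions lay elsewhere. The choice used position only, so signal and support by replicate were not part of it. The data map where a tagged transcription factor bound in the genome of Caenorhabditis elegans, using whole larvae at the L3 stage, as a mixture of both sexes and of unknown age, in 2 biological replicates of 1 kind of sample. All animals were of strain OP355, with the mutation unc-119(tm4063) on III and the transgene wgIs355. The labels disagree on the target: the antibody and strain fields name mdl-1, a Mad-like basic helix-loop-helix gene, and the free-text field names an eGFP fusion of ZK337.2. The protein is therefore called the tagged factor. Labels and file descriptions do not say which cells made it or which promoter drove it, and signal from a whole animal is a sum over all of its tissues. There was no second group, so nothing could be compared between conditions.

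Transfer RNA genes are short genes transcribed by RNA polymerase III. Their promoter lies inside the transcribed sequence: the factor TFIIIC binds an A box near the 5′ end and a B box in the part that forms the T arm, and it recruits TFIIIB, which sits just upstream and positions the polymerase. An isotype is the set of tRNA genes that carry the same amino acid, and most isotypes in the worm are encoded by many copies, often with the same sequence.

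Gene sequences are shown first because the copies limit what any region can be assigned to, and because the gene itself supplies part of the sequence under a summit. They were read from the NCBI RefSeq assembly WBcel235, which is ce11, along the strand that is transcribed. Capitals mark the A box core TNGNNNAGT and the B box core GTTCNANNC.
F29C4.t1, Arg, chrIV:143982-144054, plus strand: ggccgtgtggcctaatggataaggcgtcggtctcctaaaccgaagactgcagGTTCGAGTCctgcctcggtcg
ZK783.t1, Glu, chrIII:7642158-7642229, minus strand: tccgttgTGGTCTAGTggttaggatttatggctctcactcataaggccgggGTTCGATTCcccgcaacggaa
C33G3.t2, Lys, chrX:14063946-14064018, minus strand: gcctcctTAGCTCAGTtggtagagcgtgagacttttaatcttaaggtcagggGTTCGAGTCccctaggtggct
F14B8.t1, Leu, chrX:6903114-6903195, minus strand: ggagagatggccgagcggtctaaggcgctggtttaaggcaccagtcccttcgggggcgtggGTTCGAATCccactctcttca
C06G1.t1, His, chrX:16634830-16634901, minus strand: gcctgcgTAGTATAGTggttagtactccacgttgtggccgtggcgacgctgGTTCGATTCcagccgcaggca
T23F1.t2, Pro, chrV:15465225-15465296, minus strand: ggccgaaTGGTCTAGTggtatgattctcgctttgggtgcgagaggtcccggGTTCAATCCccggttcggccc
The sense-strand B box core was present in 587 of 612 nuclear tRNA genes (95.9%) and the A box core in 385 (62.9%). Of the genes with a pooled summit, 248 of 255 held the B box core and 173 held the A box core. The F14B8.t1 gene has the same sequence as C04E7.t1, a second leucine gene, and both lay under regions of the IDR list described next.

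Windows of 201 bp centred on the summit are shown for 5 regions of the IDR list, the deposited list of reproducible regions: the 3 that held CACGTG, the sequence recognised by Myc and Max family proteins, a leucine gene that shares its sequence with a gene of that trio, and a histidine gene with several GAGAGA matches. They are printed along the strand of the tRNA gene, and capitals mark CACGTG, and GAGAGA or its reverse complement TCTCTC.
F29C4.t1, Arg, chrIV:143902-144102, plus strand: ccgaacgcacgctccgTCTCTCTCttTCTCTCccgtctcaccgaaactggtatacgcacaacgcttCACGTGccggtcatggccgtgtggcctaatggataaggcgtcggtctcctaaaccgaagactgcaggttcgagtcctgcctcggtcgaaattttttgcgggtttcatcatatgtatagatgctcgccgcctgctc
ZK783.t1, Glu, chrIII:7642085-7642285, minus strand: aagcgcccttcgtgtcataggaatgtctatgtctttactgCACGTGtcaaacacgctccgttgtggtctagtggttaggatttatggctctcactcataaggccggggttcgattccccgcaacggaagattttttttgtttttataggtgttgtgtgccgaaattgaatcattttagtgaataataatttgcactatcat
F14B8.t1, Leu, chrX:6903154-6903354, minus strand: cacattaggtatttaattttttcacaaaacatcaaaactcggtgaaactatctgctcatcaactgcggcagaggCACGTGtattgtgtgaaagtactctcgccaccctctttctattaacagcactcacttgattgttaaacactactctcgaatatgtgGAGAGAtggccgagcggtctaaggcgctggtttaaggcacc
C04E7.t1, Leu, chrX:353290-353490, minus strand: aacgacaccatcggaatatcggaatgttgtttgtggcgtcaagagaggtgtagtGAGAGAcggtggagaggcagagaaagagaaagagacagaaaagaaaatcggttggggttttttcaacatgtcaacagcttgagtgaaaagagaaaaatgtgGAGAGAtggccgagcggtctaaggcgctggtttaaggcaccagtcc
C06G1.t1, His, chrX:16634836-16635036, minus strand: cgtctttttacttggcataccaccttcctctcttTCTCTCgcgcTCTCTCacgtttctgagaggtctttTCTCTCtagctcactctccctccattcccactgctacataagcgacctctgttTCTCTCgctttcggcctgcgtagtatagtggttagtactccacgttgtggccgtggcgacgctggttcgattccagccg
In the F29C4.t1 window CACGTG ended 8 bp short of the gene, and in the ZK783.t1 window it ended 10 bp short. In the F14B8.t1 window the gap was 79 bp. The C04E7.t1 window held no CACGTG, although the tRNA genes are the same.

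A pooled summit lay within 200 bp of 255 of 612 nuclear tRNA genes (41.7%, exact Clopper-Pearson 95% interval 37.7 to 45.7). That this count equals the number of regions is a coincidence, since 24 genes had 2 summits and 24 regions lay near more than 1 gene. Taking only the nearest gene of each region, 234 genes were represented. The 22 mitochondrial tRNA genes had no summit. Intervals cover counting error over genes or regions only. Sequencing depth is not stated for any list. No test was run, since 1 group of samples offers no contrast and the regions of a list are not replicates.

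Isotypes were taken from the RefSeq annotation for 607 genes, which fell into 21 isotypes. Aspartate genes had the highest share among isotypes with more than 1 gene, with 18 of 27 covered (66.7%, interval 46.0 to 83.5). Proline followed with 22 of 42 and lysine with 23 of 46. Glutamate had 20 of 41 and leucine 19 of 39. At the other end were arginine with 13 of 44, tryptophan with 3 of 12 and phenylalanine with 3 of 14 (21.4%, interval 4.66 to 50.8). The single selenocysteine gene, K11H12.t1 on IV, which inserts selenocysteine at recoded stop codons, was also covered. The order of neighbouring isotypes cannot be told from these counts: of the 21 intervals, only that of aspartate left out the share over all genes, with no adjustment for their number. That did not hold in either replicate's own list. In replicate 1, 9 of 27 aspartate genes were covered (33.3%, interval 16.5 to 54.0), below glutamate with 14 of 41 (34.1%), and the share over all genes was 22.5%. In replicate 2, 15 of 27 were covered (55.6%, interval 35.3 to 74.5), and the share over all genes was 36.4%. Both intervals include the share over all genes of their list.

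**Figure D1:**
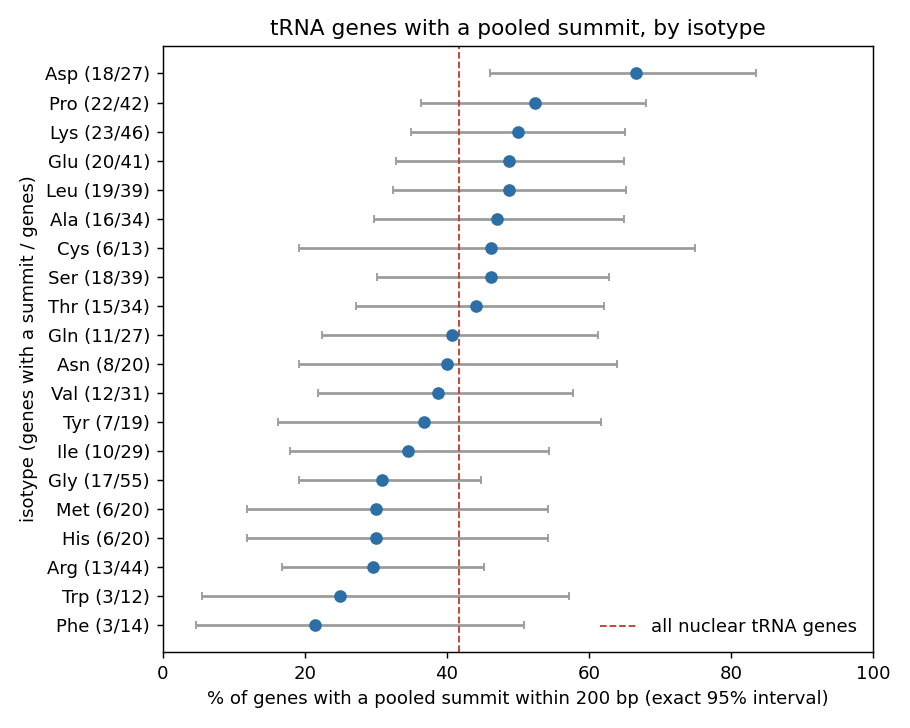
Share of the genes of each tRNA isotype with a pooled summit within 200 bp (points, in %) with exact 95% intervals (bars), for the 20 isotypes with more than 1 gene; numbers beside the names are covered genes over all genes. Aspartate is at 66.7%, phenylalanine at 21.4%, and the dashed line marks the 41.7% of all nuclear tRNA genes.

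Copies of a gene were covered unevenly, and identical copies are a limit on every assignment here. The 612 genes held 200 distinct sequences. Copies were counted by exact match of the whole annotated gene. By that rule 143 genes had no identical copy, and the largest set of identical genes, for glycine, had 29 members. Near-identical genes and genes annotated with shifted ends count as having no copy. For example, 1 such glutamine gene holds most of the sequence shared by 15 identical glutamine genes. Reads from within identical copies cannot be placed on 1 copy, and no source states how the authors' alignment treated them. Of genes without an identical copy, 46 of 143 were covered (32.2%, interval 24.6 to 40.5), against 209 of 469 with a copy (44.6%, interval 40.005 to 49.2). Among 57 sets of identical genes, 47 had both covered and uncovered members, 4 were covered throughout and 6 had no covered member. In the set of 21 identical aspartate genes 17 were covered (81.0%). One set of 15 identical glutamate genes had 11 covered, and another of 20 had 6. The sets of 10 identical phenylalanine genes and 10 identical tryptophan genes had 1 and 2 covered. Summits at identical genes were thus called at some copies and not at others.

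Coverage was similar in different surroundings. Intergenic genes were covered in 134 of 319 cases (42.0%) and genes in introns of protein-coding genes in 118 of 283 (41.7%). Of the 10 genes that overlap a protein-coding exon 3 were covered. The 29 genes with an intron of their own had 12 covered (41.4%). Genes on the plus strand were covered in 134 of 298 cases and those on the minus strand in 121 of 314.

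Chromosome X carried 127 of the 255 tRNA regions. It holds 276 of the 612 nuclear tRNA genes (45.1%) on 17.7% of the nuclear sequence, and it took 49.8% of the tRNA regions and 19.7% of the other pooled regions. The autosomes carried 24 tRNA regions on I, 24 on II, 26 on III, 29 on IV and 25 on V. Per gene, 129 of 276 genes on X were covered (46.7%, interval 40.7 to 52.8), beside 126 of 336 on autosomes (37.5%, interval 32.3 to 42.9), and these intervals overlap. Genes without an identical copy were covered in 22 of 57 cases on X and 24 of 86 on autosomes.

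**Figure D2:**
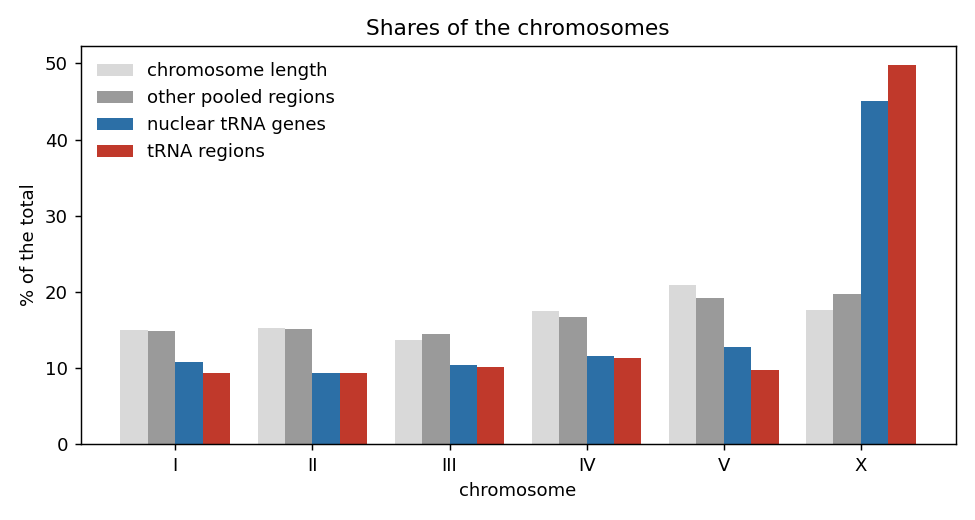
Share of each chromosome (in % of the total) in nuclear sequence length, other pooled regions, nuclear tRNA genes and tRNA regions. On X the tRNA genes make up 45.1% and the tRNA regions 49.8%, while the other pooled regions make up 19.7%.

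The tRNA regions sat above the middle of the pooled list by signal. Signal here is the score that the authors' peak caller gave each region, which has no stated scale and is compared only within 1 list. Pooled signal ran from 4.83 to 55.5 at tRNA regions with a median of 8.71, and the median of the other regions was 7.18. As a percentile of the pooled list, where 100 is the highest, the median was 67.9 for tRNA regions and 49.9 for the others. A raised median was not particular to tRNA genes. It was 60.3 for the 3145 other regions with a summit within 200 bp of a coding 5′ end. The 15000 regions of higher signal held 167 of the 255 (65.5%). Split into 10 groups of 3000 regions by rank, the list had 49 tRNA regions in its highest group (19.2%), 51 in the next (20%) and 10 in its lowest (3.92%). None was among the very highest: the best rank of a tRNA region was 274.

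The regions on X had the higher signal, with a median of 10.3 (median percentile 78.6) beside 7.80 on autosomes (58.1). The other pooled regions differed less, with medians of 7.35 on X and 7.14 on autosomes. Among isotypes with at least 10 regions, median signal ran from 7.07 at threonine to 12.2 at glutamate, whose 21 regions spanned 4.96 to 50.9. The range within each isotype was wider than the spread between the medians. The same placement was seen in each replicate's own list, where 130 tRNA regions of replicate 1 had a median percentile of 61.2 and 222 of replicate 2 had a median of 70.2. The lists share 1 control alignment.

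**Figure D3:**
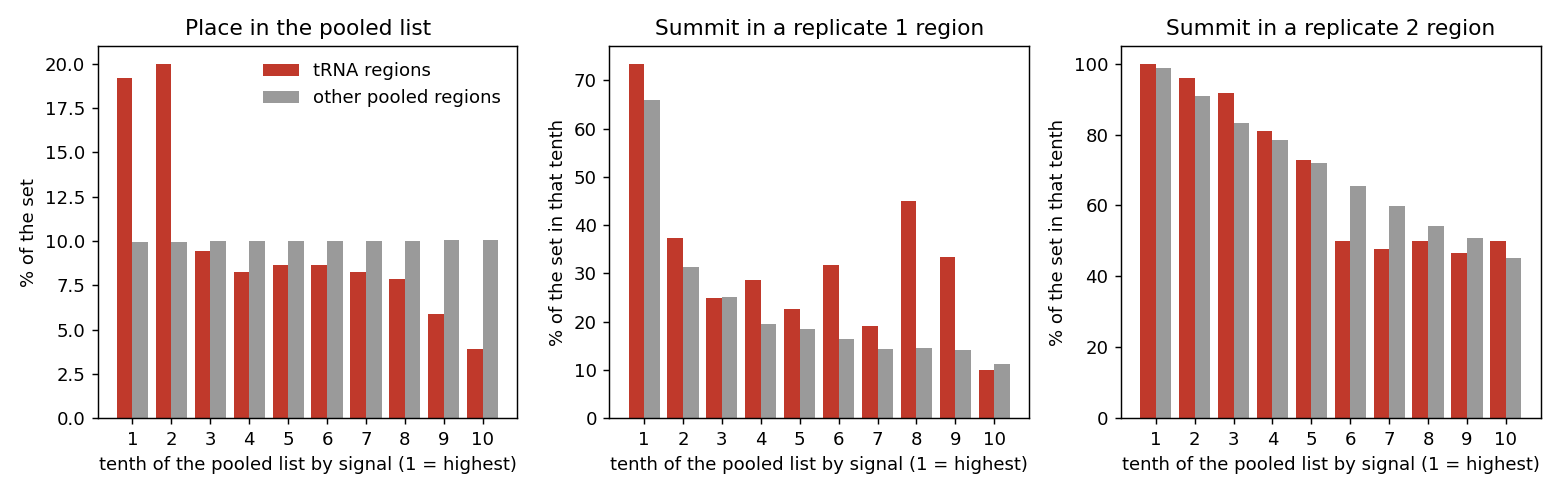
The pooled list split into 10 groups of equal size by signal (1 is highest). Bars give, for tRNA regions and for the other pooled regions, the share of each set in the group (left, %), and the share of those with a summit inside a region of replicate 1 (middle, %) or replicate 2 (right, %). The highest groups hold 19.2% and 20% of the tRNA regions.

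Support differed between the replicates. A region was counted as supported when its summit lay inside a region of that replicate's list, which held 15898 regions for replicate 1 and 30000 for replicate 2. In replicate 1, 98 of 255 tRNA regions were supported (38.4%, interval 32.4 to 44.7), where 23.2% of all pooled regions were. In replicate 2, 196 were supported (76.9%, interval 71.2 to 81.9), where 69.8% of all pooled regions were. Both replicates supported 68 (26.7%, interval 21.3 to 32.5), beside 13.4% of all pooled regions. A further 29 tRNA regions (11.4%) were in neither list, beside 20.4% of the others.

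Higher signal goes with more support, so the shares were also set side by side within groups of equal rank. In the highest group 73.5% of tRNA regions and 65.9% of the others were supported in replicate 1. The difference was widest in the eighth group, with 45% and 14.5%, from 20 tRNA regions. In the third group the shares were 25% and 25.1%, and in the lowest 10% and 11.3%, so tRNA regions were not the better supported there. In replicate 2 the tRNA share was the higher from the highest group (100% and 98.6%) to the fifth (72.7% and 71.9%). It was also higher in the lowest (50% and 45.3%), and lower from the sixth (50% and 65.4%) to the ninth (46.7% and 50.8%). The median shift between the pooled summit and the supporting summit was 6.5 bp in replicate 2 and 42 bp in replicate 1.

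Only 16 tRNA regions were in the IDR list, which keeps regions by their irreproducible discovery rate between replicates and here held 1015. That is 6.27% of the 255 (interval 3.63 to 9.99), where 3.38% of all pooled regions were kept. The higher share was not seen throughout. On X 12 of 127 tRNA regions were kept (9.45%), beside 4.41% of the other regions on X. On autosomes it was 4 of 128 (3.13%, interval 0.858 to 7.81), close to the 3.10% of the other autosomal regions. At genes without an identical copy 1 of 49 was kept (2.04%, interval 0.0517 to 10.9). That interval includes both 3.38% and 6.27%, so this count does not separate the 2 shares. The IDR list was made from these same lists and took the pooled regions of highest signal, down to 25.9, so the 16 are the tRNA regions above that signal. Their own signals ran up to 55.5 with a median of 35.6, beside 39.6 for the other IDR regions. They were on X in 12 cases, on IV in 2, and on III and V in 1 each. They covered 12 isotypes, and 15 of the 16 nearest genes had an identical copy elsewhere. Within 200 bp of their summits lay 19 tRNA genes.

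The arginine gene F29C4.t1 (WBGene00023019), in an intron of the collagen gene col-99, had the highest tRNA signal, 55.5 at rank 274. In replicate 2 its signal was 50.3 at rank 197, and in replicate 1 it was 2.70 at rank 10716. The replicates therefore placed it far apart. The glutamate gene C28G1.t1 (WBGene00022947, chrX:8836113-8836184) had a pooled signal of 50.9. It ranked 781 in replicate 1 with 8.86 and 325 in replicate 2 with 39.9. Its summit also lay 74 bp from the 5′ end of the protein-coding gene C28G1.2, so the tRNA gene and that promoter cannot be told apart as the place of the signal. The asparagine gene F41D9.t3, in an intron of the anion transporter gene sulp-3, had a pooled signal of 48.6, with rank 2085 in replicate 1 and 273 in replicate 2.

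The glutamine gene R04A9.t1 had a pooled signal of 46.9, but its summit was 196 bp upstream of the gene, near the limit of 200 bp. The leucine gene C04E7.t1 had 40.5, with ranks of 5247 and 368 in replicates 1 and 2, and its summit was 229 bp from the 5′ end of sor-3. The other leucine gene, F14B8.t1, had 37.5, with ranks of 2023 and 400. Both leucine summits lay upstream of the gene, by 54 and 59 bp, where the printed windows of the copies differ. The glutamate gene ZK783.t1, in an intron of the uridine phosphorylase gene upp-1, had 37.8, with ranks of 9679 and 437. It was the only one of the 16 without an identical copy, and the 5′ end of upp-1 lay 916 bp away.

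The lysine gene C33G3.t2 ranked high in both replicates, with a pooled signal of 37.6, a rank of 769 in replicate 1 and a rank of 499 in replicate 2. Its gene was intergenic, with the nearest coding 5′ end 3976 bp away. The glycine gene M02F4.t1 had a pooled signal of 33.7 and ranks of 534 and 974. The histidine gene C06G1.t1 had 31.1 and ranks of 1415 and 652. These 3 summits lay from 44 bp upstream of the 5′ end to 10 bp inside the gene. The alanine gene F15G9.t2, in an intron of the hemicentin gene him-4, had 30.1 with ranks of 461 and 1217, and the proline gene T23F1.t2 had 27.8 with ranks of 809 and 1178. The glutamate gene F25F6.t1 had 27.0 with ranks of 2538 and 944.

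For 2 of the 16 the IDR list kept a tRNA region with no counterpart in replicate 1. This was not confined to tRNA genes. Replicate 1 supported 6860 of the 29745 other pooled regions and 5957 of the 28746 outside the IDR list. Part of the other 999 IDR regions thus lacked a counterpart too. The aspartate gene F38G1.t2, in an intron of egl-17, which encodes a fibroblast growth factor, had a pooled signal of 32.8 and a rank of 460 in replicate 2. Its summit lay 214 bp from the 5′ end of egl-17. The tyrosine gene R11.t1 had a pooled signal of 26.6 and a rank of 787 in replicate 2. The reverse order was seen at another aspartate gene, F41A4.t1, which had the lowest IDR signal of all, 25.9 at rank 1015. It ranked 337 in replicate 1, the best place of any tRNA region there, and 2696 in replicate 2.

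The 5 tRNA regions of highest signal outside the IDR list lay close below its lowest signal. They were at aspartate gene F52H2.t1 (25.5), arginine gene F47G6.t1 (25.4), serine gene K02A4.t1 (25.2), isoleucine gene C02B4.t1 (25.1) and glycine gene ZK154.t4 (24.7). K02A4.t1 and C02B4.t1 have no identical copy. They are the highest serine and isoleucine regions. For the isotypes whose highest region was lower still, pooled signal was 18.6 at valine gene R04D3.t2, 18.2 at threonine gene ZK563.t1, 16.9 at methionine gene F22F1.t6 and 14.8 at cysteine gene F42D1.t1. It was 13.9 at tryptophan gene C03B1.t1, 13.8 at phenylalanine gene T28B4.t1, 10.6 at selenocysteine gene K11H12.t1 and 6.39 at DY3.t2, which has no isotype in the annotation.

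The share of tRNA regions among the highest in both replicates was near that of all pooled regions. Among the 1015 regions of highest signal in replicate 1 were 14 of the 255 tRNA regions (5.49%), and the same number were among the highest in replicate 2, beside 3.30% and 3.44% of the other pooled regions. Both at once held for 3 tRNA regions (1.18%), at M02F4.t1, C28G1.t1 and C33G3.t2, where 1.86% of all pooled regions met it. Of the 16 tRNA regions in the IDR list these 3 are 18.8%, and among the other 999 IDR regions 547 (54.8%) were high in both. These sets were not matched for signal. The other IDR regions began at rank 1 and reached a signal of 539, and the tRNA regions began at rank 274 and reached 55.5. Of the 16, 13 were among the highest of replicate 2 and 6 among those of replicate 1. Across the 68 tRNA regions supported in both lists, Spearman's rho between the signals was 0.26, and across 3941 other regions it was 0.55. The sets differ in size and in range of signal, and some tRNA regions shared a supporting region. The difference between the rho values was not tested. These values describe 1 pair of libraries that share a control, and regions are not independent.

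**Figure D4:**
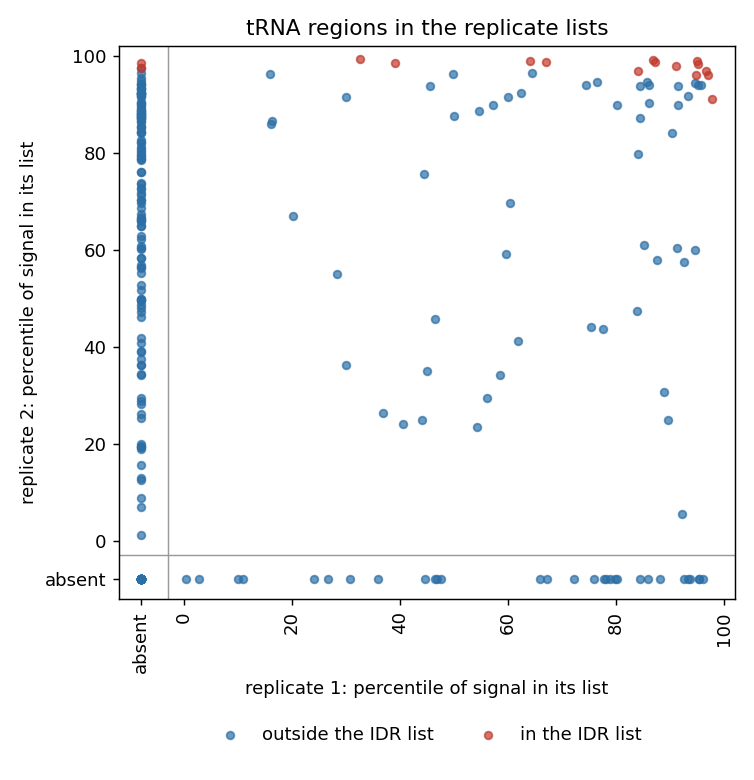
Each point is a tRNA region, placed by the percentile of its signal in the list of replicate 1 (x axis) and replicate 2 (y axis); 100 is highest, and regions missing from a list lie in the strip marked absent. The 16 regions of the IDR list (red) all lie high in replicate 2 and spread widely in replicate 1, where 2 of them are absent.

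Summits lay around the gene body and its 5′ flank. Measured along transcription from the annotated 5′ end of the nearest gene, the median pooled summit was at +15 bp, with quartiles of -54 and 112 bp. Of the 255, 113 lay upstream (44.3%), 64 within the gene (25.1%) and 78 downstream (30.6%). Allowing for the 200 bp searched on each side and the median gene length of 72 bp, this is 5.65 summits per 10 bp upstream, 8.89 within and 3.90 downstream. The median was +36.5 bp for replicate 1 and +19 bp for replicate 2. Of the 16 IDR regions 9 were upstream, 6 within and 1, at T23F1.t2, downstream, with a median of -29 bp. The T23F1.t2 summit lay between that gene and the lysine gene T23F1.t1 on the opposite strand. Of genes with such neighbours, 98 of 236 with another tRNA gene within 1000 bp were covered (41.5%), beside 157 of 376 without one (41.8%).

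**Figure D5:**
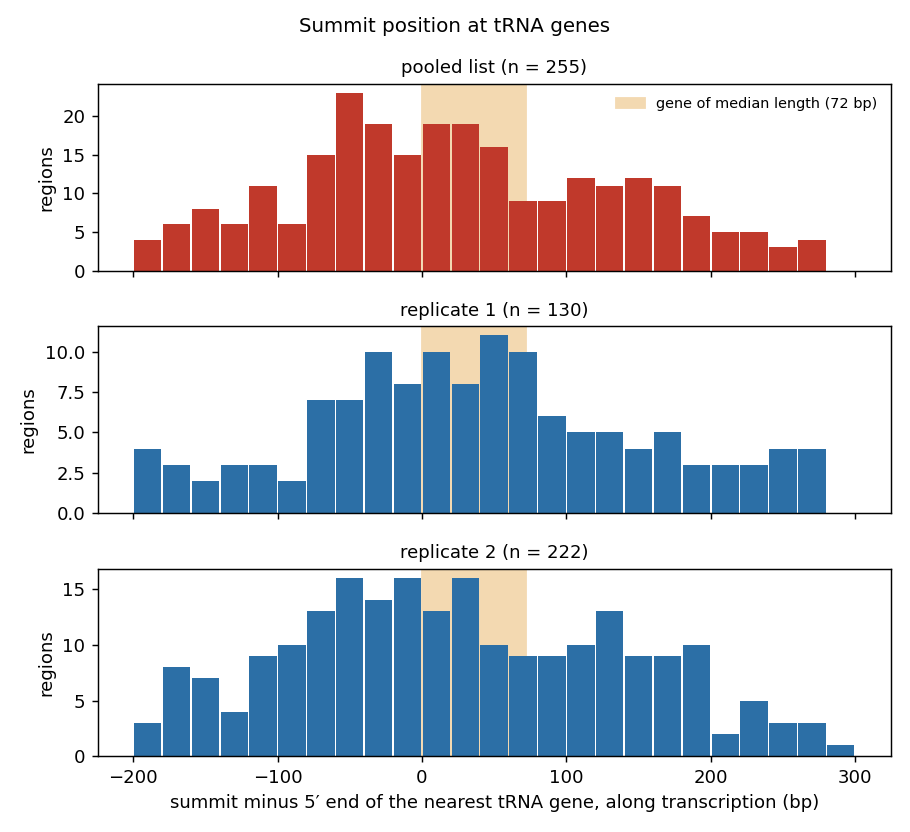
Number of summits (y axis) in bins of 20 bp by distance from the 5′ end of the nearest tRNA gene along transcription (x axis, bp), in the pooled list and in each replicate. The shaded band is a gene of the median length, 72 bp, and the pooled summits peak in and just before it.

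The limit of 200 bp left some regions close to either side. Just inside were summits 195 bp from W06D4.t1 (signal 13.6), 196 bp from R04A9.t1 (46.9) and 198 bp from F49E2.t1 (5.72). Just outside were summits 201 bp from F35A5.t1 (5.59), 203 bp from F44A2.t1 (8.24) and 213 bp from B0285.t1 (5.03). The last 100 bp inside the limit held 62 regions, and the next 100 bp outside it held 23.

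Most tRNA regions were not at promoters of protein-coding genes. A coding 5′ end lay within 1000 bp of the summit in 67 of 255 (26.3%, interval 21.0 to 32.1), beside 37.5% of the other pooled regions. Within 200 bp it was 8 (3.14%) beside 10.6%. The 188 tRNA regions with no coding 5′ end within 1000 bp had a median percentile of 67.3 and the 67 with one had 72.2. Among the 16 IDR regions 6 had a coding 5′ end within 1000 bp. Of their nearest tRNA genes 9 lay in introns of protein-coding genes and 6 between genes, and 1 overlapped an exon.

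The boxes of the tRNA promoter were, by position, common under tRNA summits, while the share with CACGTG was near that elsewhere. In windows of 201 bp, on both strands, the B box core was in 141 of 255 tRNA windows (55.3%) and 6.50% of the others, and the A box core in 58.8% and 28.3%. Median GC content was 43.3% and 35.3%. CACGTG was in 12 tRNA windows (4.71%, interval 2.45 to 8.08) and 5.41% of the others. None of the 12 matches was inside a tRNA gene, and 0 of 612 tRNA genes hold CACGTG. In the IDR list CACGTG was in 3 of 16 tRNA windows (18.8%, interval 4.05 to 45.6) and 29.7% of the 999 others. The remaining 9 regions with CACGTG had pooled signals from 5.03 at B0491.t2 to 10.4 at Y7A9D.t2.

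CACGCG, a variant of the same sequence, was in 29 tRNA windows (11.4%) and 3.50% of the others. In 22 of the 29 the match lay inside a tRNA gene, and 73 of 612 tRNA genes hold it on either strand. CTGCGTC was in 20 tRNA windows (7.84%) and 3.802% of the others, never inside a tRNA gene. GAGAGA was in 60 tRNA windows (23.5%, interval 18.5 to 29.2) and 15.7% of the others. In 6 of the 60 the match lay inside a tRNA gene, and the printed F14B8.t1 window has its only GAGAGA there. GAGAGA was in 11 of the 16 IDR tRNA windows (68.8%, interval 41.3 to 89.0), F14B8.t1 among them, and 57.3% of the other IDR windows. The order was reversed in the IDR list for CACGCG, at 2 of 16 tRNA windows (12.5%, interval 1.55 to 38.3) and 16.02% of the others, and for CTGCGTC, also at 2 of 16 and at 22.7% of the others. Median pooled signal was 11.5 in the 60 tRNA regions with GAGAGA and 8.31 in the 195 without. It was also higher with CACGCG (11.96 beside 8.34 without) and with CTGCGTC (11.5 beside 8.59), and lower with CACGTG (7.73 beside 8.90). The CACGCG regions were most often at glutamate genes, whose regions had a median of 12.2, and motif and isotype were not separated. The lower median with CACGTG did not extend to the highest signals. Of the 12 regions with CACGTG 3 were in the IDR list, and of the 243 without it 13 were. A match describes letters in a window and is not shown to be a site.

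The protein-coding genes of the same pathway were then examined, with a promoter window that began 1000 bp before the 5′ end and ended 200 bp after it. Aminoacyl-tRNA synthetases load each tRNA with its amino acid, and 32 of 36 listed symbols were found in the annotation. A pooled summit lay in the window of 15 of the 32 (46.9%, interval 29.1 to 65.3), where 38.2% of all protein-coding genes had one. An IDR summit lay at 1 of the 32, where 2.52% of all genes had one. That gene was hars-1, the histidyl-tRNA synthetase, with a pooled signal of 26.5, a signal of 3.11 in replicate 1 and 25.4 in replicate 2. The next highest were mars-1, the methionyl-tRNA synthetase, at 20.1, and aars-1, the alanyl-tRNA synthetase, at 15.2.

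Of 13 genes of the RNA polymerase III machinery 6 had a pooled summit (46.2%, interval 19.2 to 74.9): rpc-1, rpc-11 and rpac-19, which encode polymerase subunits, tftc-1 and tftc-5, which encode TFIIIC subunits, and snpc-4, a subunit of the small nuclear RNA activating complex. None had an IDR summit (0 of 13, which allows a share of up to 24.7%). Both lists lie near the background over all protein-coding genes. The genes for brf-1 and tbp-1, subunits of TFIIIB, had no summit in that window in any of the 4 lists.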

How the data were processed

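Called regions from ChIP-seq of L3 larvae were analysed in 4 deposited ce11 lists: 1 per replicate, 1 pooled and 1 IDR-thresholded. Each replicate list came, per the deposited file descriptions, from 1 replicate and a control alignment, the pooled list from both replicates and that control, and the IDR list from these 3. No source used here gives the aligner, caller or cutoffs. The deposited signal of each region was treated as a score by the authors' caller. The ce10 lists were not used here.

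Genes came from Ensembl release 115 (WBcel235), isotypes and sequence from RefSeq. Anticodons were not assigned. Summits were compared with genes, replicate lists and motifs in Python 3.11.15, numpy 2.4.6, pandas 2.3.3 and scipy 1.17.1, with figures from matplotlib 3.10.9. The distance to a tRNA gene and the lookup of summits inside regions were tested on positions placed at known distances from real tRNA genes. Other calculations were not tested in this way. Coordinates are 1-based. Intervals are exact Clopper-Pearson at 95%.

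The members and lists were chosen with earlier results of these data known. Named were the nearest tRNA genes of all IDR members, of the 5 next below, of the highest region of each isotype and of 3 regions on each side of the 200 bp limit, plus pathway genes with an IDR summit. C28G1.2, mars-1, aars-1, the polymerase III genes, B0491.t2, Y7A9D.t2 and host or neighbouring coding genes were named after their values were seen. Alternatives changed the distance, the support rule, the list depth, the windows and the replicates used.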

Additional observations from a re-analysis of the deposited data

How the results depend on the processing

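Of the alternatives, 48 values stayed within their margin and 28 moved, and the cause of a move was not tested beyond what the construction fixes. With a limit of 100 bp the median percentile was 74.8. With summits required inside the gene there were 64 regions at 64 genes, a percentile of 75.8 and 46.9% replicate 1 support. The 15000 regions of higher signal held 167, with a percentile of 84.9 and 91.6% replicate 2 support. Those 15000 span the highest to the fifth rank group. Across these groups replicate 2 support fell from 100% to 72.7% at tRNA regions and from 98.6% to 71.9% at the others. Leaving out replicate 1 or 2 in turn, and taking the other replicate's list in place of the pooled list, gave 130 to 222 regions, 138 to 223 genes, percentiles of 61.2 to 70.2, IDR shares of 7.21% to 10.8% and median summits at 19 to 36.5 bp. Replicate 1 then supported 29.7% of replicate 2's tRNA regions, and replicate 2 supported 50.8% of replicate 1's. For these IDR and support shares no share over all regions of the replicate lists is given. The shares over all pooled regions do not apply to them. Replicate 2 support was 70.2% when summits had to lie within 100 bp, for which no share of the other regions is given. With replicate lists of equal length it was 60.8%, beside 47.9% of the other pooled regions. Added after the data were seen, a restriction to genes without an identical copy left 49 regions at 46 genes. Their IDR share was 2.04% (interval 0.0517 to 10.9), and that interval includes the 3.38% of all pooled regions. Another addition, leaving out regions with a coding 5′ end within 1000 bp, moved none of its 5 values. In windows of 50 and 200 bp to each side, the B box core share was 27.8% and 91.0%, the A box core share 32.2% and 80.4%, and the GAGAGA share 15.7% and 39.6%. CACGCG was at 17.3% with 200 bp and CTGCGTC at 3.92% with 50 bp. No paired analysis was possible because there is 1 group of samples. Sequencing depth is not stated and could not be weighed. Identical gene copies, a control shared by all lists and 2 replicates limit every value here.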

Other observations

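Other short noncoding gene classes were covered by the same rule of 200 bp. A pooled summit lay near 122 of 346 small nucleolar RNA genes (35.3%, exact interval 30.2 to 40.5), whose products guide the modification of other RNAs, and near 32 of 129 small nuclear RNA genes (24.8%, interval 17.6 to 33.2), whose products act mainly in splicing. The share was 42 of 261 for microRNA genes (16.1%, interval 11.9 to 21.1) and 0 of 20 for ribosomal RNA genes, where the interval reaches 16.8%. For IDR summits the order was another: 9 of 129 small nuclear RNA genes (6.98%, interval 3.24 to 12.8), 19 of 612 tRNA genes (3.10%, interval 1.88 to 4.81), 9 of 346 small nucleolar RNA genes (2.60%) and 5 of 261 microRNA genes (1.92%). The intervals of the small nuclear RNA and tRNA genes overlap. Gene length differs between the classes, with medians from 72 bp for tRNA to 130 bp for small nucleolar RNA genes, which widens the window of the longer classes.

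Across the deposited ce11 lists, 306 of 612 nuclear tRNA genes had a summit within 200 bp in the pooled list or in at least 1 replicate list, and 306 had none. The lists of both replicates covered 83 tRNA genes, and 80 of these also had a pooled summit.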
